A study of Mus musculus with 8 samples.

Results

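C1q-positive infiltrating macrophages are described here in GL261 gliomas of WT and Acod1 KO mice, profiled as single cells by Drop-seq. GL261 is a mouse glioma line that grows in the brain of immunocompetent C57BL/6 mice, and Drop-seq counts unique molecular identifiers (UMIs) from the 3′ end of transcripts in droplets that hold a barcoded bead and, mostly, a cell. The 6 tumour-bearing libraries were used, 1 per genotype and stage, and each came from 1 mouse. All 6 mice had 500 GL261 cells injected, into the right striatum by the labels and into the frontal cortex by the study's methods, and the brains were taken at tumour volumes of 5 to 10 mm3 (early), 20 to 25 mm3 (intermediate) or 30 to 35 mm3 (late). The WT mice carried Irg1/Acod1 +/+ and the KO mice Irg1/Acod1 -/-, on a background that the labels give as C57BL/6 and the study's methods as C57BL/6N. The KO allele acts in all cells of the mouse, so the macrophages, microglia and lymphoid cells of a KO mouse all carried it, whereas the injected tumour cells came from the same line in both genotypes. By the methods of the study, the WT early and KO intermediate mice were female and the other 4 male, so sex and genotype cannot be told apart at the early and intermediate stages. Xist, the RNA of the inactive X chromosome, followed this in the macrophages, with 238 UMIs in the WT early and 170 UMIs in the KO intermediate library and 0 in the other 4.

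The cells were chosen on their own transcript values, given as UMIs per 10,000 UMIs of the cell. Of the 1000 barcodes with the most UMIs in each library, those with at least 1000 genes were kept. A member had a Tyrobp, Fcer1g and Lyz2 sum of at least 30, which marks myeloid cells. It had a sum of at least 10 for Tgfbi, Thbs1, Ccr2, Ly6c2, Plac8, Ms4a7, Arg1 and Mrc1, which mark infiltrating cells, and that sum was greater than the sum of the microglial genes P2ry12, Siglech, Cx3cr1 and Gpr34. The tumour genes Col9a1, Lect1 and Rhox5 summed to under 10. The C1qa, C1qb and C1qc sum was at least 5 and at least equal to the sum of the monocyte genes Ly6c2, Plac8 and Chil3. This gave 313 members among 4807 cells. The WT early library held 92 of them, KO early 48, WT intermediate 11, KO intermediate 70, WT late 12 and KO late 80. A further 103 infiltrating cells failed only the C1q step and 120 cells were microglia by the same genes, with the microglial sum at least 10 and at least equal to the infiltrating sum. These are the 2 classes the members were compared with.

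C1qa, C1qb and C1qc encode the 3 chains of C1q, the recognition molecule that starts the classical complement pathway. In tissues C1q is made mainly by macrophages and, in the brain, by microglia. Monocytes that enter a tumour from the blood lose monocyte genes such as Ly6c2 and gain genes of resident macrophages, among them C1q, MHC class II and the lysosomal proteases, as they mature. Acod1 encodes the mitochondrial enzyme that makes itaconate from cis-aconitate and is induced in activated myeloid cells.

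The genes of the gate are given as a description, since they chose the cells. The median C1q sum per member lay between 83.2 UMIs per 10,000 in KO intermediate and 129 in WT intermediate, well above the minimum. The lowest member stood at 7.29 and the highest infiltrating cell under the minimum at 4.99. Of the other infiltrating cells, 70 were under the C1q minimum, and 33 passed it but had more monocyte transcripts. The C1q sum minus the monocyte sum was -3.15 UMIs per 10,000 in the closest of these 33 and 0 in the lowest member. Microglia carried more C1q than the members, with medians of 168.5 to 229 UMIs per 10,000 over the libraries. The macrophage genes of the gate differed between libraries. Levels of a gene are given as CPM, its UMIs summed over the cells of a class in a library, divided by all UMIs of that sum and scaled to 1000000. Arg1, which encodes arginase 1, ran from 452 CPM in WT late to 5965 in KO early. Mrc1, the mannose receptor, ran from 365 in WT intermediate to 843 in WT late, and Ms4a7 from 195.5 in KO early to 994 in WT late.

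**Figure D1:**
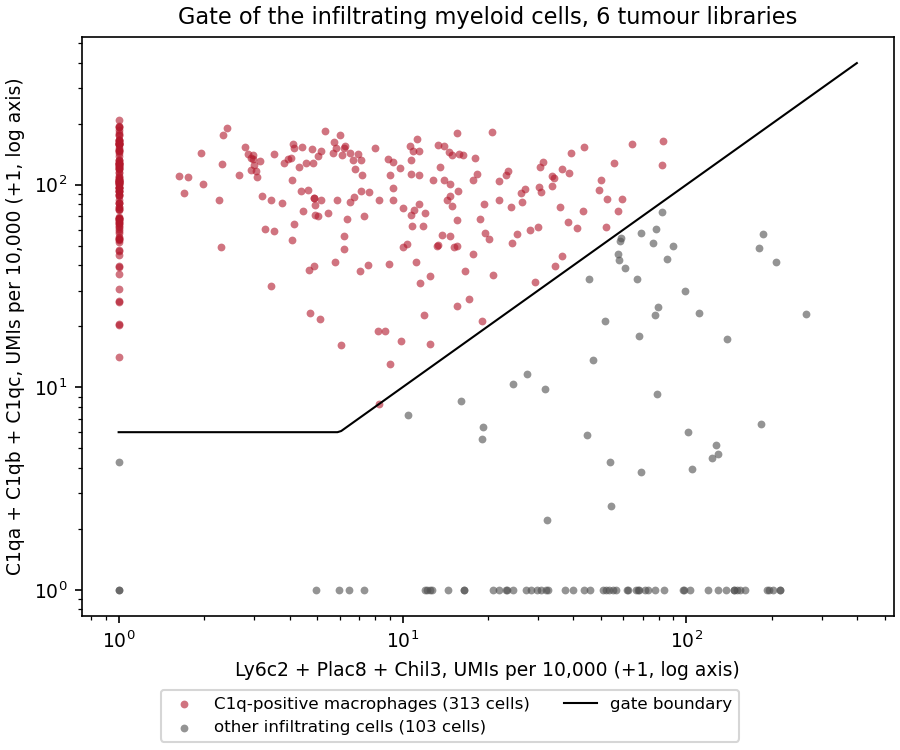
Each point is an infiltrating myeloid cell of the 6 tumour libraries, with the summed monocyte genes of the gate on the x axis and the summed C1q genes on the y axis, both in UMIs per 10,000 plus 1 on log axes. The 313 members lie on or above the gate boundary, and 58 of the 103 other infiltrating cells have no C1q UMI.

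The label was compared with markers outside the gate. The gate limits microglial and tumour genes, so low levels of markers that vary with them follow in part from the choice of cells. Apoe, the lipid carrier of macrophages, was high in every library, at 20780 CPM in WT early, 9619 in KO early, 34250 in WT intermediate, 16880 in KO intermediate, 31000 in WT late and 14230 in KO late. It was not particular to the members, with means of 9241 CPM in the other infiltrating cells of the 6 libraries and 7746 CPM in the microglia of 5. Microglial markers outside the gate, a list of 10 genes among them Tmem119, Sall1 and Sparc, summed to between 910 CPM in KO early and 3780 in WT late in the members, against 8384 to 12410 CPM in microglia. The T and NK cell list of 9 genes summed to at most 59.5 CPM in the members, and the neutrophil list of 8 genes to at most 45.2 CPM. Dendritic cell markers summed to between 30.1 and 501 CPM, tumour markers outside the gate to between 27.9 and 84.9 CPM, and markers of other brain cells to between 139 and 697 CPM. Markers of border-associated macrophages, which live in the meninges and around vessels, summed to between 972 and 1807 CPM in 5 libraries and to 4527 CPM in WT intermediate. Lyve1 and Cd209f of that list were at 0 in the members, whereas Pf4 and Stab1 averaged 912.6 and 164 CPM over the 6 libraries. Clec4n and F13a1 of the list averaged 483 and 176 CPM over the 5 libraries other than WT intermediate. Over the members, 34 of 313 cells held at least 30 border-list UMIs per 10,000, 7 of the 11 WT intermediate cells among them.

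The libraries held 6251385 to 9950713 UMIs and 716 to 1000 kept cells. The median depth of a member was 2748 to 4637 UMIs over the libraries, that of another infiltrating cell 2209 to 3582 and that of a microglial cell 2752 to 3814. Thinned to 1500 UMIs, members held medians of 882.5 to 939 genes and other infiltrating cells 867 to 934. Mitochondrial transcripts took 1.07 to 5.55% of the members' UMIs. Any pair of libraries shared at most 2 cell barcodes. The WT intermediate and WT late libraries gave only 23 of the 313 members, with sums of 62956 and 66397 UMIs, and they stand apart below in MHC class II and microglial genes. Cells of a library share their mouse, so all tests ran on UMI sums per library, and the intervals given cover counting error only.

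The members made up most infiltrating myeloid cells in each tumour, and their share did not differ detectably between the genotypes. The share among infiltrating cells was 82.9% in WT early (exact 95% binomial interval 74.6 to 89.4%), 63.2% in KO early (51.3 to 73.9%), 64.7% in WT intermediate (38.3 to 85.8%), 80.5% in KO intermediate (70.6 to 88.2%), 63.2% in WT late (38.4 to 83.7%) and 75.5% in KO late (66.2 to 83.3%). The genotypes overlapped, and the KO library was the lower of the pair at the early stage and the higher at the other stages. The mean was 73.0% ± 8.91 (SD, n = 3) in KO and 70.25% ± 10.97 (SD, n = 3) in WT, a difference of 2.78 percentage points (KO minus WT) with p = 1 in a two-sided exact permutation test. With 3 libraries against 3 the smallest p this test can give is 0.1. Of all kept cells, members were 12.6% in WT early but 1.10% in WT intermediate and 1.68% in WT late, against 6.53 to 10.2% in the KO libraries. This last share also moves with the number of tumour cells recovered.

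**Figure D2:**
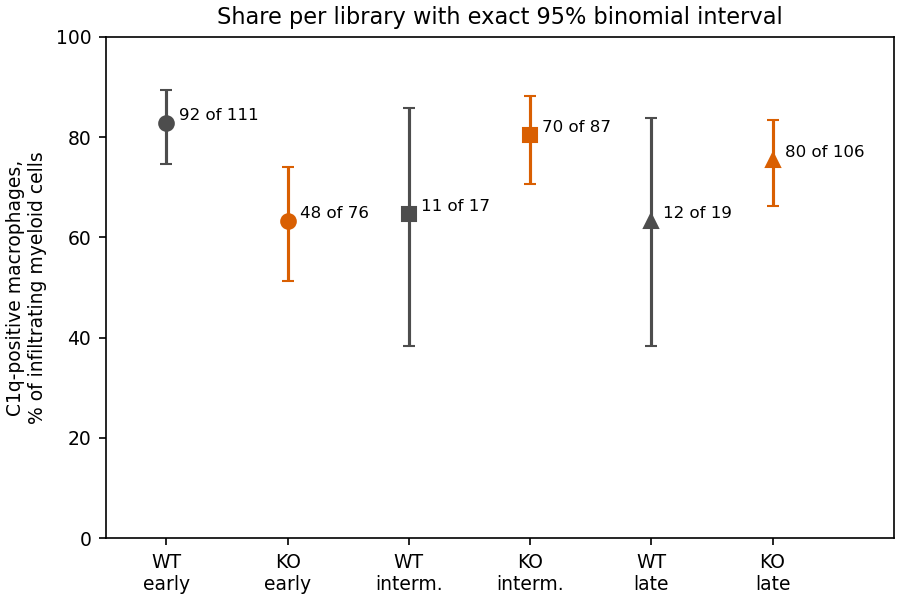
The y axis gives C1q-positive macrophages as a percentage of infiltrating myeloid cells in each library, with exact 95% binomial intervals for counting error and the cell counts beside each point. The 6 shares lie between 63.2% and 82.9%, and the intervals of WT intermediate and WT late are the widest.

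Against the other infiltrating cells of the same libraries, the members had more transcript of most lysosomal genes tested and of several lipid-handling, cell cycle and matrix genes, and less of most monocyte genes tested. The other infiltrating cells included some with lymphoid transcripts. With such cells left out, as given below, 6 of 15 lysosomal and 3 of 10 lipid-handling genes were called higher. The cells were separated on C1q and monocyte genes of the same transcriptomes. Genes that vary with those genes therefore differ by the way the cells were chosen, and the adjusted p-values below say only how evenly a difference held across libraries. With edgeR's quasi-likelihood test on UMI sums, the library as a block and Benjamini-Hochberg adjustment, 190 of 2322 genes outside the gate, or 8.18%, were called at an adjusted p under 0.05. Of all genes tested, 4.22% were called higher in the members and 3.96% lower.

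Of the 15 lysosomal genes on the list, 15 were tested, 11 were higher and 0 lower, with a median log2 fold change of 1.05 against -0.02 over all genes tested. Ctsb, which encodes the protease cathepsin B, stood in the members at 2722 CPM in WT early, 2030 in KO early, 6973 in WT intermediate, 2954 in KO intermediate, 8118 in WT late and 4249 in KO late. In the other infiltrating cells it stood at 1798, 1125, 1806, 1238, 4596 and 1297 CPM in the same order. The members were higher in 6 of 6 libraries, by 1.20 ± 0.22 (SE) on the log2 scale with an edgeR adjusted p of 0.000969. Cd63, a tetraspanin of late endosomes, was higher by 1.82 ± 0.29 (edgeR adjusted p 0.000242), and Lgmn, the endopeptidase legumain, by 1.42 ± 0.21 (edgeR adjusted p 0.00011). Grn, which encodes progranulin, was higher by 1.26 ± 0.21 (edgeR adjusted p 0.000339). Each of these 4 genes was higher in 6 of 6 libraries.

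Among 10 lipid-handling genes tested, 5 were higher and 0 lower, with a median of 0.90. Apoe was higher by 1.22 ± 0.21 (edgeR adjusted p 0.000599), Lipa, the lysosomal acid lipase, by 1.48 ± 0.28 (edgeR adjusted p 0.00118), Lpl, the lipoprotein lipase, by 1.68 ± 0.36 (edgeR adjusted p 0.00431) and the cholesterol exporter Abca1 by 2.07 ± 0.45 (edgeR adjusted p 0.0045). The fifth called gene was Trem2, a lipid-sensing receptor. Of the 7 cell cycle genes tested, Birc5, Mki67, Top2a and Tubb5 were higher. Top2a, the topoisomerase of S and G2 phase, stood between 143 and 437 CPM in the members and between 43.0 and 206 CPM in the other infiltrating cells. It was the lower of the pair in WT intermediate, at 143 against 206 CPM.

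Chemokine genes were part of the same pattern. Of 18 cytokine and chemokine genes tested, 5 were higher, namely Ccl12, Ccl7, Cxcl1, Cxcl16 and Il1a, and 0 lower. Ccl7 was higher in only 4 of 6 libraries, with its call held in 11 of 16 settings, and Cxcl1 in 5 of 6 libraries. Ccl12, a ligand of CCR2, was higher in 6 of 6 libraries by 2.54 ± 0.27 (edgeR adjusted p 1.76e-06). Ccl7, Ccl8 and Ccl12 have similar sequences, and how reads were split between them is uncertain. The tissue inhibitor of metalloproteinases Timp2 was higher in 6 of 6 libraries by 2.87 ± 0.34 (edgeR adjusted p 6.38e-06). Its members' level lay between 121 CPM in KO early and 874 CPM in WT intermediate, and that of the other cells between 0 and 155 CPM. Vcam1, an adhesion molecule for integrin alpha 4, had the largest fold of the named genes higher in the members, 3.75 ± 0.57 (edgeR adjusted p 0.000148), and was carried by the WT early, KO intermediate and KO late members at 314, 274 and 354 CPM. The other 3 libraries held 15.1 to 31.8 CPM. Hpgds, a prostaglandin D2 synthase, was higher by 2.89 ± 0.55 (edgeR adjusted p 0.00136), Pf4, platelet factor 4, by 2.96 ± 0.47 (edgeR adjusted p 0.000242), and the tetraspanin gene Cd81 by 2.36 ± 0.33 (edgeR adjusted p 6.61e-05). The members also had more Fcrls, an Fc receptor-like gene of microglia, by 3.18 ± 0.41 (edgeR adjusted p 2.26e-05), and more 2810417H13Rik, a proliferation-associated gene, by 3.50 ± 0.45 (edgeR adjusted p 2.05e-05).

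Of 11 monocyte genes tested outside the gate, 7 were lower in the members and 0 higher. S100a6, a small calcium-binding protein, stood at 55.8 CPM in the WT early members and at 743 CPM in the other infiltrating cells there. In KO early the pair was 455 and 1211 CPM, in WT intermediate 175 and 1883, in KO intermediate 190 and 430, in WT late 166 and 895, and in KO late 316 and 1021. No member sum reached the level of the other cells of its library, and the fit gave -2.18 ± 0.29 on the log2 scale (edgeR adjusted p 2.99e-05). S100a4 (-1.97 ± 0.29, edgeR adjusted p 8.89e-05), Ly6i (-2.06 ± 0.24, edgeR adjusted p 6.89e-06) and Slfn4 (-2.64 ± 0.33, edgeR adjusted p 1.43e-05), all genes of immature or interferon-exposed monocytes, were also lower in 6 of 6 libraries. Of 19 interferon-induced genes tested, Ifi47, Ifit2, Isg15 and Rsad2 were lower and 0 higher. The summed list was below that of the other cells in 5 of 6 libraries, by little in WT early (6043 against 6138 CPM), and above it in WT intermediate (3542 against 1883 CPM). The calls held in 7 (Isg15) to 12 (Rsad2) of 16 settings.

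Of 8 growth factor and matrix genes Mmp12, Sdc4, Spp1 and Timp2 were higher. In the remaining lists Cfp was higher of 5 tested complement genes, Ccl8, Mgl2 and Stab1 of 10 for alternative activation, Adgre1, Fcgr4 and Msr1 of 15 Fc and scavenger receptors, Hmox1 and Prdx1 of 6 iron and NRF2 genes, and Maf of 10 transcription factors. Fosb was higher of 11 immediate early genes. None of 7 MHC class II genes, 11 MHC class I genes, 11 glycolysis and hypoxia genes or 19 study genes was called by edgeR. Among the microglial markers Fcrls and Olfml3 were higher and Selplg lower, and of the border-associated markers Pf4 and Stab1 were higher of 4.

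The comparison class held lymphoid cells. Gzma, Gzmb, Nkg7, Trac and Trbc2, all 5 genes tested from the T and NK list, were lower in the members, and 18 of the 103 other infiltrating cells but 2 of the 313 members had at least 5 UMIs per 10,000 of that list. With these cells left out of both classes, a step chosen after the data were seen, 144 of 2440 genes (5.9%) were called, 107 of them among the 190, and 2.5% were higher and 3.4% lower of all genes tested. Then 6 of 15 lysosomal genes, 3 of 10 lipid genes and 4 of 7 cell cycle genes were higher, and 7 of 13 monocyte genes and 8 of 19 interferon-induced genes were lower. Of the genes named above, Lpl, Trem2, Cfp, Prdx1, Fosb, Adgre1, Msr1, Cxcl16, Il1a, Olfml3 and Selplg were then no longer called, Hmox1 and Fcrls did not pass the filter on low counts, and Il1b, Cebpb and Atf3 were called lower. Without KO early 112 genes were called, and without KO late 89.

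**Figure D3:**
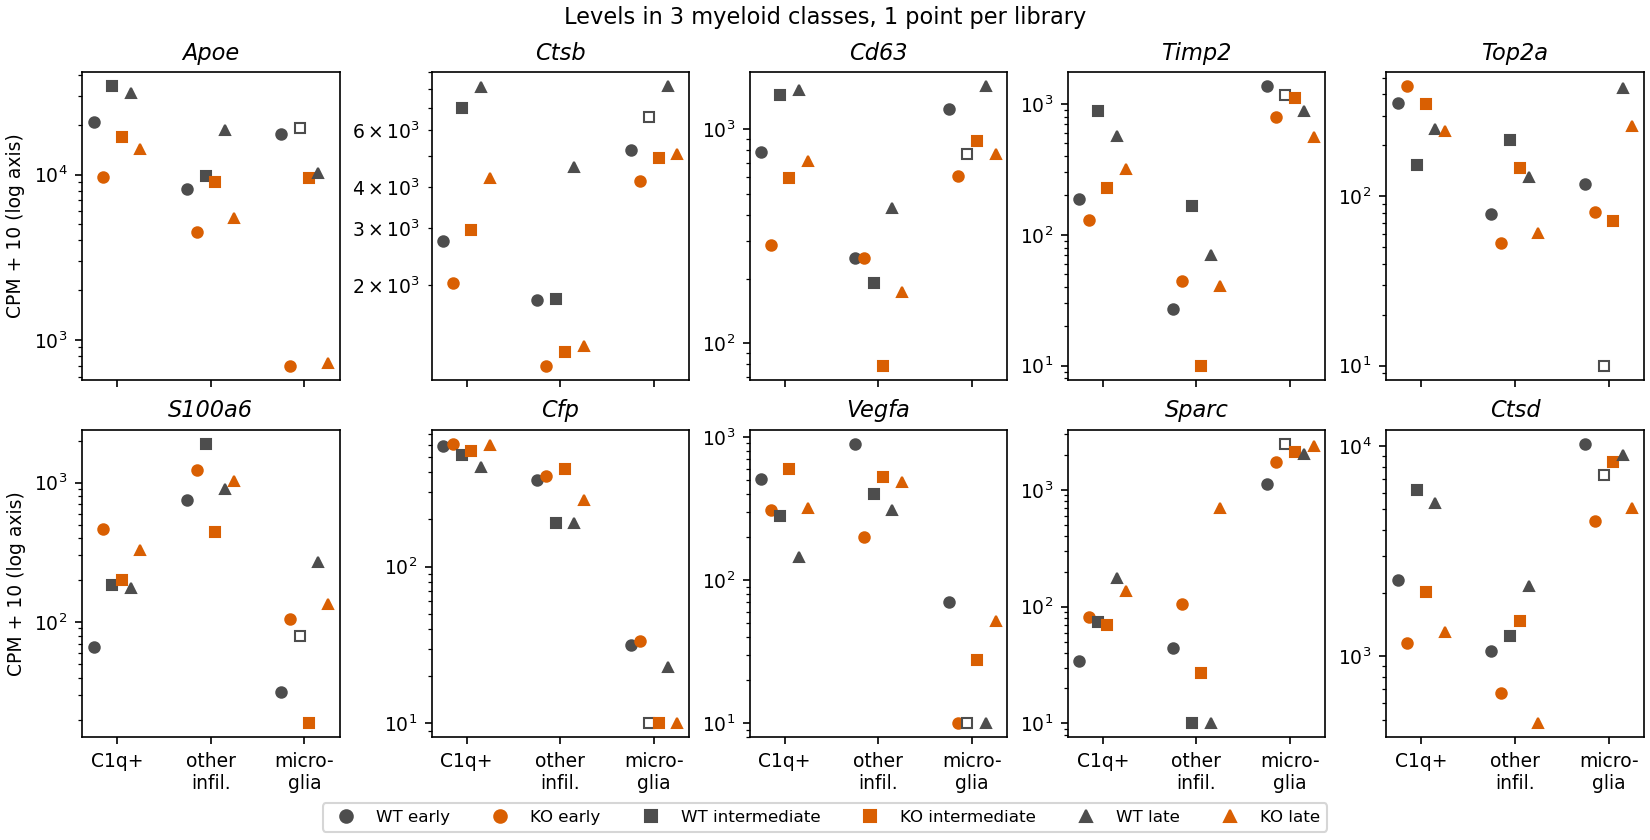
Each panel gives a gene as CPM plus 10 on a log axis in the C1q-positive macrophages, the other infiltrating cells and the microglia, with a point per library, grey for WT and orange for KO, the marker shape for the stage. The open square is the WT intermediate microglia, a sum of 4 cells that was not tested. Ctsb and Cd63 are higher in the members than in the other infiltrating cells of each library, S100a6 is lower, Cfp is lowest in microglia and Sparc highest there.

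The members differed from microglia far more widely. The comparison used 5 libraries, since WT intermediate held only 4 microglia, and the rule again separated the classes on genes that vary with others. Of 3915 genes tested by edgeR, 787 were called (20.1%), 10.6% of all genes tested higher in the members and 9.48% lower. All 9 monocyte genes tested were higher in the members. All 10 microglial markers were lower, with a median log2 fold change of -2.78 against 0.04 over all genes. Sparc, a matrix protein made by microglia, was lower by 4.64 ± 0.26 on the log2 scale (edgeR adjusted p 6.72e-11), with 24.2 to 166 CPM in the members and 1114 to 2391 CPM in microglia of these libraries. Adamts1 (-6.21 ± 0.37, edgeR adjusted p 9.51e-11), Crybb1 (-6.51 ± 0.57, edgeR adjusted p 1.79e-08), Slco2b1 (-6.14 ± 0.63, edgeR adjusted p 1.65e-07) and the microglial transcription factor gene Sall1 (-5.70 ± 0.81, edgeR adjusted p 1.41e-05) were lower in 5 of 5 libraries.

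Clec4e, which encodes the pattern receptor Mincle, was at 105 to 258 CPM in the members of all 6 libraries and had 0 UMIs in the microglia of all 6. Over the 5 libraries tested the members stood at 158 CPM, at least 24.4-fold higher than the floor of 3 UMIs over the microglial sum. F10, coagulation factor X, was at least 20.2-fold higher on the same footing, Iqgap2, a cytoskeletal scaffold, at least 19.0-fold, the NAD-consuming ectoenzyme gene Cd38 at least 12.8-fold, and Sirpb1b at least 10.0-fold. Dpep2, Gpr141 and Slpi were also at 0 in microglia. Cfp, which encodes properdin, the positive regulator of the alternative complement pathway, was at 422 to 597 CPM in the members and at most 23.8 CPM in microglia (5.32 ± 0.38, edgeR adjusted p 1.03e-09). Among the other complement genes tested, C3 and Cfb were higher and C4b lower.

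Hypoxia and glycolysis genes were higher in the members, 9 of 14 tested, with Hk2 lower. Vegfa, the angiogenic growth factor, ran from 135.5 CPM in WT late to 582 CPM in KO intermediate in the members and stayed at or below 59.8 CPM in microglia (3.69 ± 0.36, edgeR adjusted p 8.8e-08). Ldha, the lactate dehydrogenase subunit, was higher by 1.09 ± 0.24 (edgeR adjusted p 0.00206) in 4 of 5 libraries. The chemokine genes split. Cxcl2, a neutrophil attractant, was higher in the members by 4.07 ± 0.47 (edgeR adjusted p 9.18e-07), while Ccl3 (-3.14 ± 0.21, edgeR adjusted p 8.15e-10), Ccl4 (-3.03 ± 0.21, edgeR adjusted p 8.15e-10) and Tnf (-2.65 ± 0.25, edgeR adjusted p 6.63e-08) were lower. Over that list 8 genes were higher and 6 lower of 18 tested.

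Lysosomal genes took opposite sides. Acp5 and Gpnmb were higher in the members, and Ctsb, Ctsd, Ctsl, Ctsz, Grn and Lgmn were among those lower. Ctsd, the aspartic protease cathepsin D, stood at 2285, 1148, 6195, 2011, 5347 and 1291 CPM in the members of WT early, KO early, WT intermediate, KO intermediate, WT late and KO late, and the microglia of the 5 tested libraries at 10240, 4417, 8432, 9042 and 5096 CPM. The fold change was -1.79 ± 0.22 (edgeR adjusted p 1.73e-06). Apoe was higher by 2.00 ± 0.44 (edgeR adjusted p 0.00167) in 5 of 5 libraries, and was not called with no library block. Its mean over these libraries was 18500 CPM in the members and 7746 CPM in microglia. The microglia differed widely between libraries, and those of KO early and KO late held 689 and 713 CPM. Trem2 was lower by 1.48 ± 0.20 on the log2 scale (edgeR adjusted p 7.87e-06) and the fatty acid-binding protein gene Fabp5 higher (2.77 ± 0.34, edgeR adjusted p 2.1e-06). Growth factor and matrix genes were mostly higher, 6 of 11 with 2 lower, iron and NRF2 genes 4 of 9 with 0 lower, cell cycle genes 4 of 11 with 0 lower, and alternative activation genes 4 of 9 with 0 lower. Of 15 Fc and scavenger receptors 5 were higher, among them Msr1 and Clec4n, and Csf1r, Itgam and Mertk lower. Of 20 interferon-induced genes 5 were higher and 2 lower, of 12 immediate early genes 2 and 5, of 11 transcription factors 3 and 4, and of 11 MHC class I genes 0 and 2. Without WT early 477 genes were called, and without KO intermediate 518.

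MHC class II transcripts set the libraries apart more than the classes. The invariant chain gene Cd74 and the chain genes H2-Aa, H2-Ab1 and H2-Eb1 encode the molecules that present peptides to CD4+ T cells, and their transcription is governed by a shared set of promoter boxes. The Y box among these holds the letters CTGATTGG. The RefSeq promoter table for GRCm38.p6 held 7 of the 10 list genes, and this motif, searched on both strands in the 120 bases before the start, was found in 3 of the 7, namely H2-Aa, H2-Eb1 and H2-Oa. It was found in 934 of 32851 promoters, or 2.84%. The table held neither H2-Ab1 nor Cd74. The windows of H2-Aa and H2-Eb1, chain genes of the sum described next, are shown 5′ to 3′ on the coding strand with the motif in capitals. That of H2-Aa lies at chr17:34287824-34287943 on the minus strand and that of H2-Eb1 at chr17:34305747-34305866 on the plus strand, each ending at the base before the start of the gene. The motif begins 51 bases before the start in H2-Aa and 62 bases before it in H2-Eb1.
H2-Aa: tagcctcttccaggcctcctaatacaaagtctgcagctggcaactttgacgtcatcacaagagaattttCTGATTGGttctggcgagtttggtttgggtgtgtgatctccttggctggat
H2-Eb1: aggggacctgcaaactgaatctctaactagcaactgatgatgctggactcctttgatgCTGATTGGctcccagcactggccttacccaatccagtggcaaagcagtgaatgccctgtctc

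The sum of Cd74, H2-Aa, H2-Ab1 and H2-Eb1 had a median over the members of 310.1 UMIs per 10,000 in WT early, 349.5 in KO early, 446 in KO intermediate and 375 in KO late. It was 2.16 in WT intermediate, where 11 cells ran from 0 to 53.5, and 6.95 in WT late, where 12 cells ran from 0 to 330. The lower quartile of the other 4 libraries lay between 202 and 281. H2-Ab1 alone stood at 9200 CPM in WT early, 9623 in KO early, 111 in WT intermediate, 9925 in KO intermediate, 979 in WT late and 9406 in KO late. The microglia of the same tumours divided the same way, with medians of 237, 155, 0, 216, 0 and 59.1 UMIs per 10,000 in WT early, KO early, WT intermediate, KO intermediate, WT late and KO late. The other infiltrating cells had medians of 304, 240.4, 5.16, 310.4, 109.6 and 263 in that order. Within libraries the members were above microglia, and edgeR called Cd74, H2-Aa, H2-Ab1, H2-DMb1 and H2-Eb1 higher and H2-Oa lower of 9 list genes tested, with H2-Ab1 higher by 1.79 ± 0.34 (edgeR adjusted p 0.000499) in 5 of 5 libraries. Cxcl9, an interferon gamma-induced chemokine gene, had a like division, at 1085, 1205, 238, 1036, 0 and 1309 CPM in the members, and the 238 CPM of WT intermediate came from 1 cell.

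**Figure D4:**
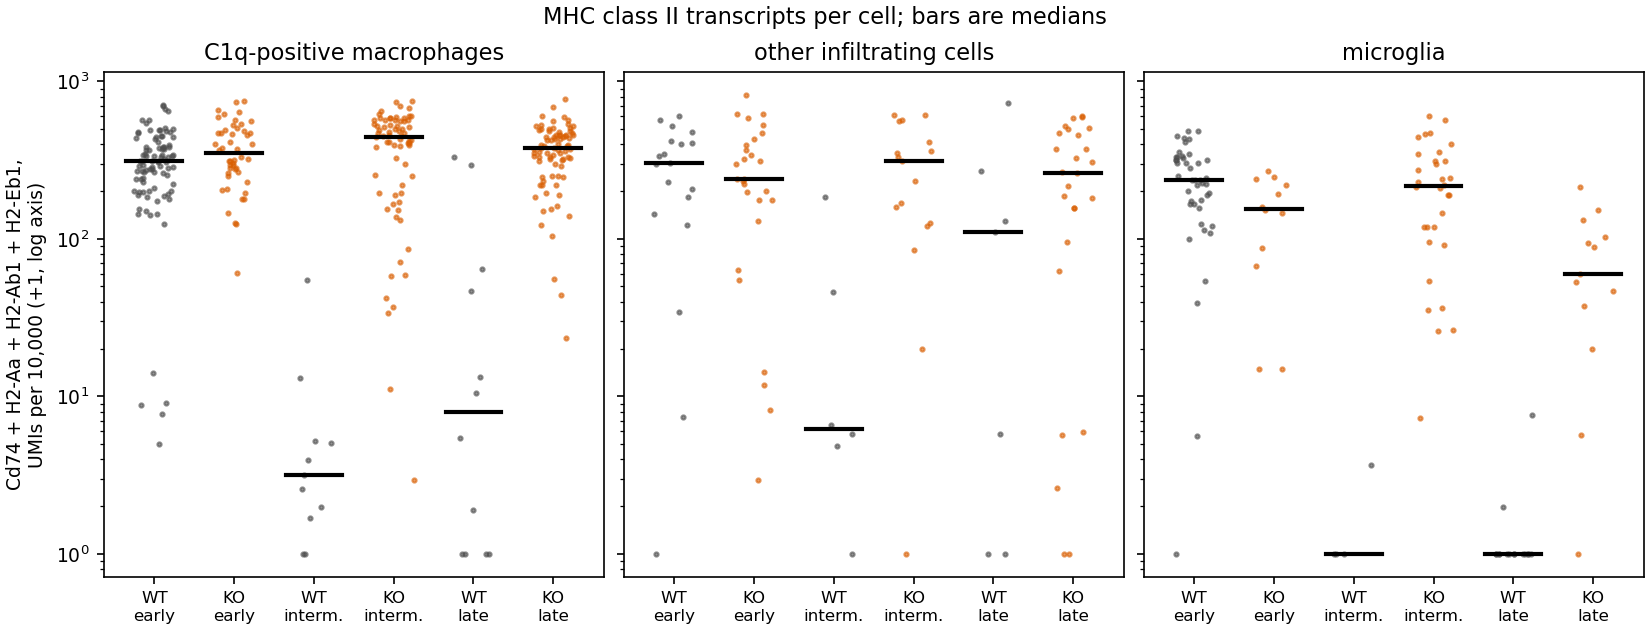
Each point is a cell and the y axis is its summed Cd74, H2-Aa, H2-Ab1 and H2-Eb1 in UMIs per 10,000 plus 1 on a log axis, by library, with the median as a bar, in panels for the 3 classes. WT intermediate and WT late are low in the members (medians 2.16 and 6.95) and in microglia (medians of 0), and the other 4 libraries are high in the members.

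KO and WT members were compared within stages, with the stage as a block. The targeted gene was low in all members. Acod1 had 66 UMIs in WT early (123 CPM, exact 95% Poisson interval 94.97 to 156), 3 in WT intermediate (47.7 CPM, 9.83 to 139) and 2 in WT late (30.1 CPM, 3.65 to 109). It had 9 UMIs in KO early (32.0 CPM, 14.6 to 60.7), 5 in KO intermediate (15.6 CPM, 5.05 to 36.3) and 17 in KO late (49.8 CPM, 29.0 to 79.7). The KO allele was made with a cassette inserted within the gene, while the reads count the 3′ end, so these UMIs do not check the allele. The study reports that genotypes were checked by PCR. It also reports no detectable Acod1 by qPCR in cultured bone marrow-derived macrophages of KO mice. The fitted difference was -1.13 ± 0.59 (edgeR adjusted p 0.998).

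By edgeR, 7 of 5255 genes were called, 0.133% of all genes tested, with 0.0571% higher and 0.0761% lower, and 226 had an unadjusted p under 0.05. Ccl24, Ccl8 and Gbp2b were higher in KO, and Fcrls, Syngr1, Gas6 and Sox4 lower, each in the same direction at 3 of 3 stages. Ccl24 (eotaxin-2, an attractant of eosinophils and a product of alternatively activated macrophages, chr5:135569937-135573049 on GRCm38) had 0 UMIs in the members of the 3 WT libraries, and 154 UMIs in KO early (547 CPM), 6 in KO intermediate (18.7 CPM) and 18 in KO late (52.7 CPM). The KO members stood at 188.5 CPM over the 3 libraries, at least 41.9-fold higher than the floor of 3 UMIs over the WT sum (edgeR adjusted p 0.000517). For each WT library a count of 0 was bounded at a floor of 3 UMIs, which is 5.58 CPM in WT early. The floor is 47.7 CPM in WT intermediate and 45.2 CPM in WT late, so the difference was not detectable at the intermediate stage. At the late stage the 52.7 CPM of KO lay only just above the WT bound, so the difference was clear at the early stage only. The UMIs of KO early lay in 9 of 48 cells, 51 of them in 1 cell, and 0 of its 12 microglia held any, at median depths of 4438 and 2752 UMIs. The gene was not called without KO early (edgeR adjusted p 0.929), without WT early (edgeR adjusted p 0.195) or by DESeq2 (adjusted p 1).

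Ccl8 (chr11:82115185-82116799), which encodes the chemokine MCP-2, stood at 214, 0 and 120.5 CPM in WT early, intermediate and late and at 910, 510.4 and 1868 CPM in KO. The 3 KO libraries were all above the 3 WT libraries, with a fold change of 3.21 ± 0.50 (edgeR adjusted p 0.0113), and in KO late 40 of 80 members held a UMI. In the microglia of KO late 0 of 13 did, at median depths of 2748 and 2841 UMIs. Gbp2b (chr3:142594847-142619179), an interferon-induced GTPase gene with close relatives in its cluster that can share reads, stood at 54.0, 0 and 0 CPM in WT and at 263, 128 and 647 CPM in KO (3.30 ± 0.59, edgeR adjusted p 0.0427).

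The genes lower in KO had their highest levels in the WT intermediate and WT late members. Fcrls (chr3:87250758-87263738) stood at 55.8, 1271 and 1054 CPM in WT early, intermediate and late and at 17.8, 65.4 and 49.8 CPM in KO (-3.78 ± 0.46, edgeR adjusted p 0.00136). In microglia it was 364, 1445 and 1516 CPM in WT and 142.5, 360 and 629 CPM in KO. Syngr1, a synaptogyrin gene (chr15:80091334-80119501), stood at 104, 429 and 361.5 CPM in WT and at 24.9, 18.7 and 46.9 CPM in KO (-3.11 ± 0.44, edgeR adjusted p 0.00511). Gas6 (chr8:13465374-13494490) encodes the ligand of the TAM receptors Axl and Mertk that bridges them to dying cells, and Sox4 (chr13:28948919-28953713) a transcription factor. Gas6 was at 16.7, 127 and 286 CPM in WT and at 0, 18.7 and 20.5 CPM in KO (-3.34 ± 0.62, edgeR adjusted p 0.0472). Sox4 was at 74.4, 159 and 181 CPM in WT and at 10.7, 21.8 and 29.3 CPM in KO (-2.68 ± 0.48, edgeR adjusted p 0.0427). These 2 calls were the less stable, held in 8 of 14 settings for Gas6 and 8 of 16 for Sox4. Fcrls and Syngr1 were each called in 13 of 16. Both Gas6 and Sox4 were lost with doublets removed, with the gate on thinned cells and without KO early, KO late or WT late.

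**Figure D5:**
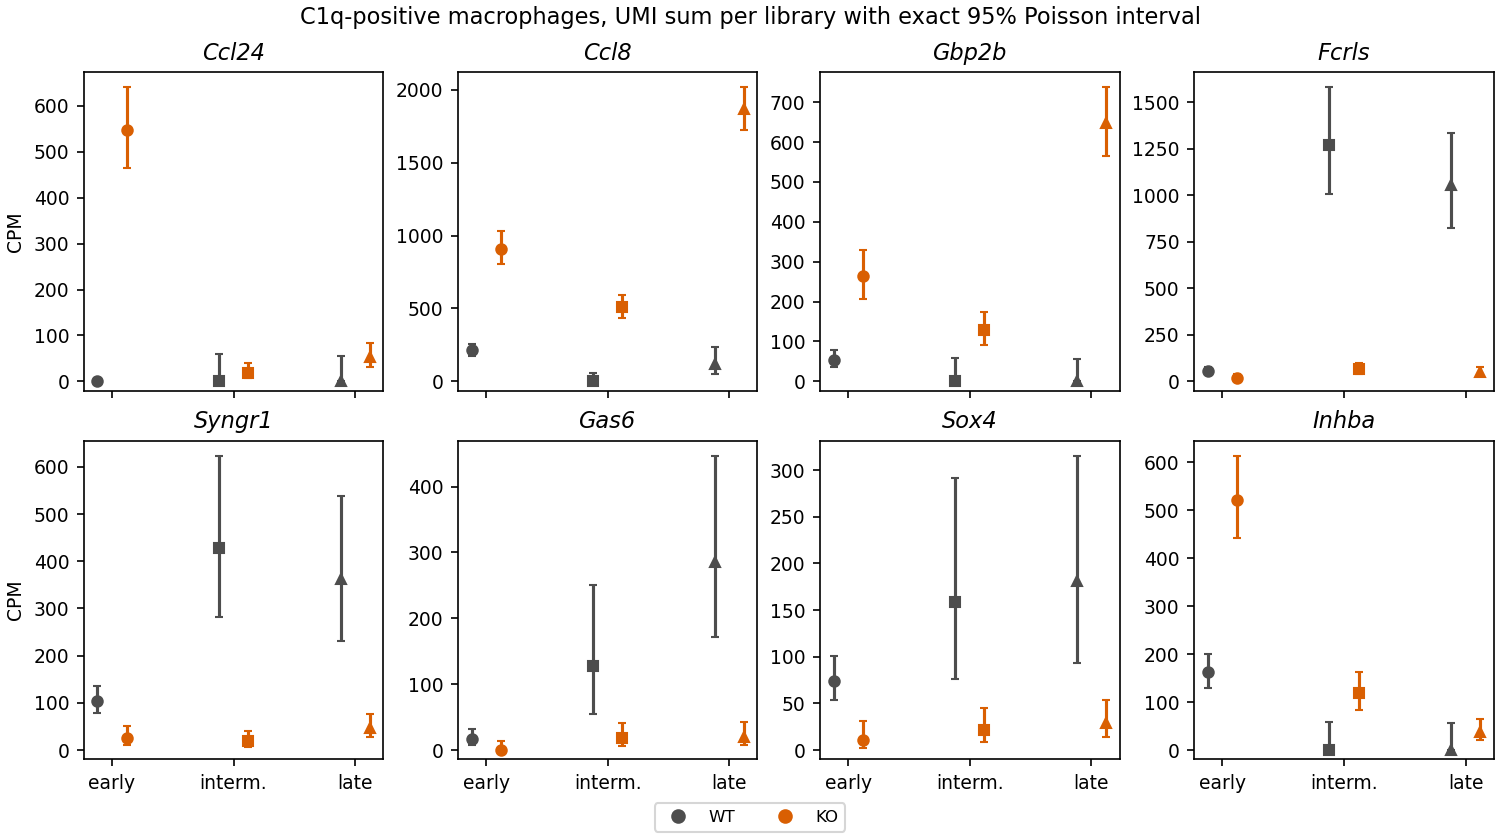
Each panel gives the CPM of a gene in the C1q-positive macrophages by stage, grey for WT and orange for KO, with exact 95% Poisson intervals for counting error and 1 library per point. Ccl24 stands out in KO early (547 CPM), Ccl8 and Gbp2b are higher in KO at each stage, Fcrls, Syngr1, Gas6 and Sox4 are lower, and Inhba falls from the early to the late stage.

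The gene lists held few calls between the genotypes. In alternative activation 2 of 12 tested genes, Ccl24 and Ccl8, were higher, and of the microglial markers Fcrls was lower of 8. For MHC class II 0 of 8 tested genes were called, although the median log2 fold change was 2.06 against 0.03 over all genes. H2-Ab1 had 3.09 ± 0.85 (edgeR adjusted p 0.312), H2-Aa 2.75 ± 0.72 (edgeR adjusted p 0.257) and Cd74 2.498 ± 0.75 (edgeR adjusted p 0.444). As given above, the WT early members were close to the KO members and the WT intermediate and WT late members far lower. Medians of lists with 0 calls were -0.78 for 12 lipid genes, -0.54 for 15 lysosomal genes and 0.65 for 20 interferon-induced genes. Apoe (-1.05 ± 0.30, edgeR adjusted p 0.352) and Ctsd (-1.52 ± 0.31, edgeR adjusted p 0.0664) were lower in KO at 3 of 3 stages without passing the threshold. Ctsd was called lower in KO in 6 of 16 settings and Apoe in 0. None of the 20 study genes was called, though H2-Ab1 and Cxcl9 were called higher in KO in 5 of 16 settings, H2-Aa in 4, Cd74 and Ccl5 in 2 and H2-Q7 and Clec7a in 1. The 20 genes had log2 values from -1.13 to 3.09, among them Cxcl9 at 2.04 ± 0.70 (edgeR adjusted p 0.715), H2-Q7 at 1.11 ± 0.35 (edgeR adjusted p 0.528) and Ccl5 at 1.66 ± 0.67 (edgeR adjusted p 0.998).

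Other cell markers moved with this comparison. The microglial list averaged 34.6 UMIs per 10,000 in the WT intermediate members and 33.2 in the WT late members, against 9.73 to 13.4 in the other 4 libraries. The border list averaged 45.4 in WT intermediate and 8.06 to 16.2 elsewhere. Pf4, of the border list, stood at 2653 CPM in WT intermediate and at 266 to 1024 CPM elsewhere, and Spp1, osteopontin, at 13310 and 6085 CPM in WT intermediate and WT late against 301 to 2612 CPM elsewhere. The part of the microglial genes and of Spp1 in the genotype result was not tested, and border-marker cells were left out in a refit given below. Without WT late 1 gene was called (Ccl24), without WT intermediate 44, without WT early 81 and without KO intermediate 43. With the 34 border-marker cells left out, a step chosen after the data were seen, the WT intermediate library fell under 5 cells. Then 31 genes were called, 5 of the 7 among them but not Gas6 and Sox4. The refit lacked that library as well, so it cannot separate the border-marker cells from it.

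The genotype effect in the members was not shown to differ from that in the other infiltrating cells. The interaction test of edgeR called 0 of 2322 genes, 0% of all genes tested, with 99 at an unadjusted p under 0.05, and DESeq2 called 1. Without WT intermediate 13 genes were called, and without the lymphoid cells 9.

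Between the early and the late stage 1 of 5255 genes was called by edgeR, 0.019% of all genes tested, with 232 at an unadjusted p under 0.05. Inhba (chr13:16011851-16031621), which encodes the beta A subunit of activin A, stood at 162 CPM in WT early and 523 in KO early, at 0 in WT intermediate and 118 in KO intermediate, and at 0 in WT late and 38.1 in KO late. It was lower at the late stage in both genotypes (-4.15 ± 0.63, edgeR adjusted p 0.0384). In KO early 87 of 147 UMIs came from 1 cell. In the other infiltrating cells Inhba was at 1452 and 361 CPM at the early and at 0 and 30.6 CPM at the late stage, and the microglia held 0 UMIs in each library.

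In the same contrast Fcrls had 3.31 ± 0.61 (edgeR adjusted p 0.0989), Ctsb 1.19 ± 0.37 (edgeR adjusted p 0.963), Spp1 2.02 ± 0.81 (edgeR adjusted p 0.998) and Apoe 0.45 ± 0.36 (edgeR adjusted p 0.998). The MHC class II median over 8 genes was -1.50 against -0.03 over all genes, with 0 called. H2-Ab1 had -2.43 ± 0.92 (edgeR adjusted p 0.998), Cd74 -1.98 ± 0.81 (edgeR adjusted p 0.998) and H2-Aa -1.87 ± 0.78 (edgeR adjusted p 0.998). H2-Ab1 stood at 9200 and 979 CPM in WT early and WT late but at 9623 and 9406 CPM in KO early and KO late. The WT early mouse was female and the WT late mouse male, so sex and stage cannot be told apart in that pair. The KO early and KO late mice were both male. The Inhba call was lost without WT late, KO early or KO late, where 0, 3 and 6 genes were called, with the doublets removed, with no genotype covariate and with the border-marker cells left out. Without WT intermediate 12, without WT early 9 and without KO intermediate 14 genes were called, Inhba among them each time.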

How the data were processed

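The authors converted the reads with bcl2fastq (2.0 per the submitters' processing notes, which also name STAR and GRCm38/mm10), checked them with FastQC and ran the Drop-seq pipeline. The deposited values are UMI counts per gene and barcode, not normalized, with 3000 barcodes a library. Cells were chosen as stated in the report, and counts were summed per library and class with at least 5 cells. Genes passing filterByExpr were tested with edgeR 4.0.16 (TMM, quasi-likelihood, Benjamini-Hochberg adjusted p under 0.05, R 4.3.3), and the 22 gate genes were neither called nor counted. The share was tested by an exact permutation test (scipy 1.17.1). The study's own test over cells was not used, since cells of 1 mouse are not replicates. Scrublet (Scanpy 1.11.5) marked doublets, and where it marked under 0.5% of cells the 5% with the highest scores were removed instead. Alternatives were DESeq2 1.42.0, other scaling, no filter, other gates, cells thinned to 1500 UMIs, no block and leaving out libraries. The fits were tested on simulated data. Named genes were the called list members with the smallest adjusted p (up to 4 a list), the 8 largest consistent folds each way at 50 CPM or more, and the genes of the study. The members and the 24 lists were chosen with earlier results of these data known. Gene positions are those of GENCODE M21 on GRCm38. The naive libraries entered no comparison. Results for some genes are not reported here.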

Additional observations from a re-analysis of the deposited data

Results flagged for a closer look

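The 2 naive libraries, which came from brains without a tumour, were outside the comparisons. The same gate found 4 cells in the WT naive and 4 in the KO naive library. Their border-associated marker sum averaged 87.3 UMIs per 10,000 in WT naive and 74.3 in KO naive, against 8.06 to 45.4 in the tumour libraries, and their MHC class II medians were 0.442 and 0. Ccl24 had 12 UMIs in the WT naive cells (576 CPM) and 5 in the KO naive cells (453 CPM), whereas the WT tumour members held 0.

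The KO minus WT difference in the share of members among infiltrating cells was -19.7 percentage points at the early stage, 15.75 at the intermediate stage and 12.3 at the late stage. The direction at the early stage was opposite to the other stages, with 1 library per genotype and stage, and the difference between stages was not tested.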

How the results depend on the processing

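Counts of called genes moved with these settings, and the causes were not tested unless the setting itself removes cells, genes or libraries. Against the other infiltrating cells (190 genes), 333 were called with no filter on low counts, 288 with at least 10 cells per sum, 85 in cells without tumour gate UMIs and 36 with no library block. Against microglia (787 genes), 457 were called with no library block. For KO against WT (7 genes), 41 were called with no filter, 1 (Ccl24) without tumour gate UMIs, 4 with doublets removed, 0 with no stage block (edgeR, 170 at an unadjusted p under 0.05) and 31 with the border-marker cells left out. For late against early (1 gene), 19 were called with no filter, 0 with doublets removed, 0 with no genotype covariate and 10 with the border-marker cells left out, Inhba not among these. For the genotype effect against that in the other infiltrating cells (0 genes), 1 was called by DESeq2, 8 with no filter, 18 with at least 10 cells per sum, 4 without tumour gate UMIs and 9 with the lymphoid cells left out. The border-marker and lymphoid settings were chosen after the data were seen.

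Leaving out each library in turn gave 89 to 210 genes against the other infiltrating cells, 477 to 965 against microglia, 1 to 81 for genotype, 0 to 14 for stage and 0 to 13 for the difference in genotype effect. The share difference ran from -0.934 to 9.10 percentage points, and was also reversed without WT late (-0.765). The late against early fold changes ran from -3.40 to 0.64 for Cd74, from -3.34 to 0.58 for H2-Aa and from -4.06 to 0.59 for H2-Ab1, each reversed without WT early. All 7 genotype genes kept their direction in every setting that tested them, but none was called in all of them.

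With 1 mouse per genotype and stage, the spread is that between stages or genotypes. Sex is confounded with genotype at the early and intermediate stages, and with stage between WT early and WT late. A sum of 62956 UMIs (WT intermediate) leaves a count of 0 uncertain up to 47.7 CPM. The classes were paired by library and the genotypes by stage. No fit used a block on the replicate number, as each group held a single replicate.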
